A study of Mus musculus with 10 samples.

Results

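Transcripts of 10 amino acid transporters were measured in fetal mouse testes cultured with an inhibitor of glycogen breakdown. The 10 genes were taken by symbol from a table of RNA-seq counts with 24470 gene entries, and each was present: Slc7a11, Slc3a2, Slc7a1, Slc7a3, Slc7a5, Slc1a4, Slc1a5, Slc38a1, Slc38a2 and Slc6a9. The samples were testes of 5 C57BL/6 embryos at E12.5, the stage at which testis cords have just formed. The left and right gonads of an embryo were split between groups: 1 received CP 316819 (GPI), a small molecule that blocks the glycogen phosphorylases, at 75 µM, and the other received its vehicle, DMSO. Both groups were kept in culture for 48 h with the mesonephros attached, and the gonads were cut away from it before RNA was extracted from each whole gonad. The comparison asks how transcripts of the testis differ when breakdown of stored glycogen by the glycogen phosphorylases is inhibited. Total counts ran from 10203679 to 15590223 in the 5 vehicle libraries and from 11025409 to 15635322 in the 5 GPI libraries.

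Amino acids enter cells through carriers of the solute carrier (SLC) families, many of which exchange one amino acid for another or move it together with sodium. Slc3a2 encodes a heavy chain that brings several light chains to the cell surface, among them Slc7a11, which imports cystine in exchange for glutamate, and Slc7a5, which imports leucine and other large neutral amino acids. Slc7a1 and Slc7a3 carry arginine and lysine, Slc1a4 and Slc1a5 exchange small neutral amino acids and glutamine, Slc38a1 and Slc38a2 import glutamine and alanine with sodium, and Slc6a9 imports glycine. A shortage of amino acids is sensed by the kinase encoded by Eif2ak4, and the transcription factor Atf4 then raises transcription of many genes for amino acid uptake and synthesis. In the fetal testis, Sertoli cells enclose the germ cells in cords, and steroid-producing Leydig cells lie between the cords.

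With GPI, 7 of the 10 transporters rose, 0 fell and 3 did not pass the test. The transporters that rose were Slc7a3, Slc7a11, Slc1a4, Slc6a9, Slc7a1, Slc38a1 and Slc3a2, in order of the size of the change, and Slc7a5, Slc38a2 and Slc1a5 did not pass. Calls were made with edgeR's quasi-likelihood test, with the mouse in the model, at a Benjamini-Hochberg adjusted p of 0.05 over the 13941 genes tested, and all 10 transporters were among those tested. Of all tested genes, 11.1% (1544) were called higher with GPI and 11.9% (1654) lower. The number called higher was 969 without mouse 3 and 1024 without mouse 4, and with scaling by total counts only it was 1238, against 1972 lower. At an unadjusted p of 0.05, 8 transporters were higher and 0 lower, beside 17% of all tested genes in each direction. DESeq2 and limma-voom likewise called 7 higher and 0 lower. The median log2 fold change of the 10 transporters was 0.75, beside 0.02 for all tested genes.

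In 7 of the 10 transporters, the lowest GPI library lay above the highest vehicle library, a separation that 7.07% of all tested genes showed. These were the 7 called higher. The same 7 of 10 were higher with GPI in 5 of 5 mice, as were 15.4% of all tested genes. Both counts come from the same values as the calls and add no separate evidence. Values below are normalized counts, that is, counts scaled by TMM to the mean library size, and errors are SD over 5 libraries unless named otherwise.

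**Figure D1:**
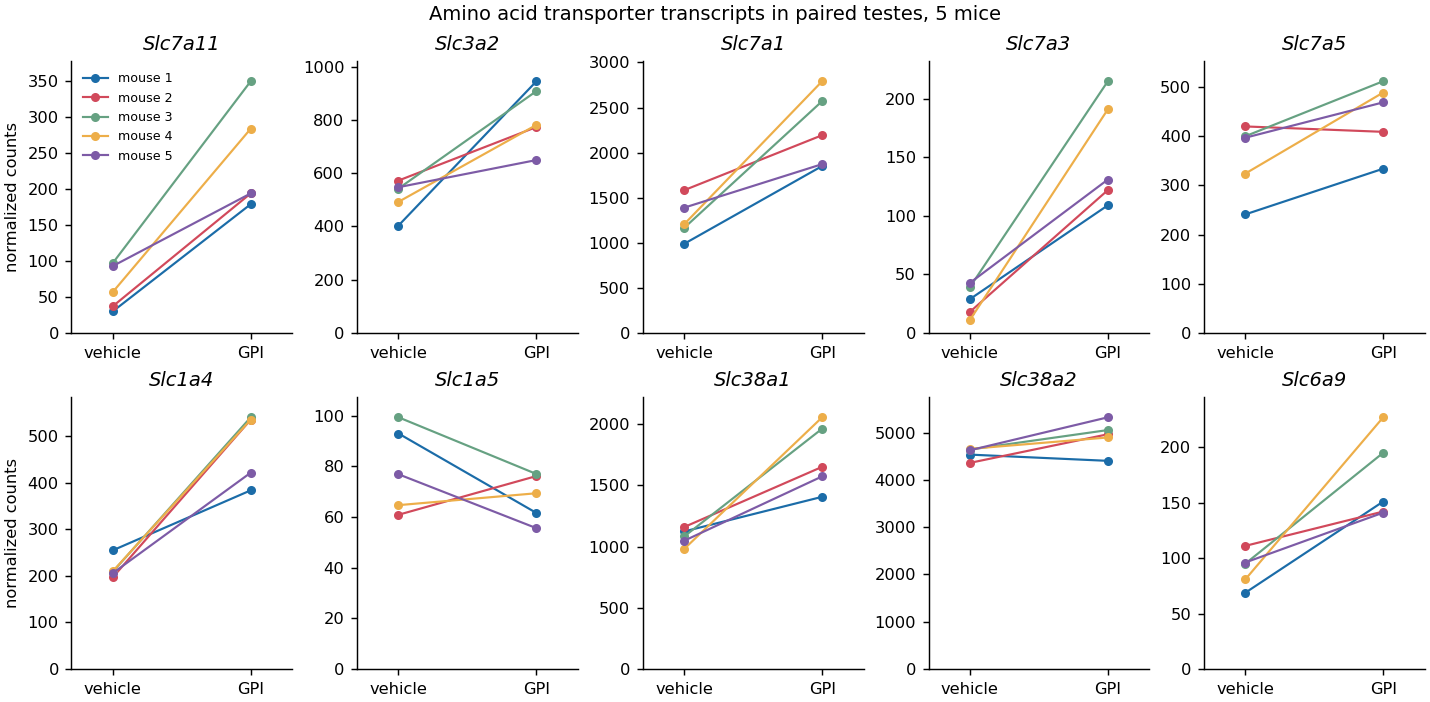
Normalized counts (y axis, linear, from 0) of each of the 10 transporters in the vehicle and the GPI testis of each mouse. A line joins the 2 testes of 1 mouse. In 7 panels all 5 GPI points lie above all 5 vehicle points, while Slc7a5, Slc1a5 and Slc38a2 overlap.

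Markers of several cell types differed in level between the groups, and these values belong beside every result on the transporters. In bulk tissue, fewer cells of a type and less RNA per cell cannot be told apart from transcript counts alone. For germ cells, the paper counted stained cells in testes cultured with GPI or vehicle and reported significantly fewer with GPI. How much of the fall in germ cell markers this accounts for was not tested. Germ cell markers fell: 6 of 8 tested genes of a list of 10 were called lower and 0 higher, and their summed level was 1784 ± 656 normalized counts with vehicle and 236 ± 71.4 with GPI. Dazl, the most abundant of them with vehicle but not with GPI, had a log2 fold change of -4.62 and Ddx4 one of -2.72. Endothelial markers also fell, with 10 of 10 called lower. Their sum was 8029 ± 438 with vehicle and 801 ± 179 with GPI, led with vehicle by Cdh5 (log2 fold change -3.63) and Pecam1 (-4.16).

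Leydig and Sertoli markers moved the other way. Of 6 fetal Leydig markers, 5 were tested and 5 rose, and their sum was 3335 ± 1674 with vehicle and 14165 ± 3744 with GPI. Hsd3b1, a steroid dehydrogenase and the most abundant of them with vehicle but not with GPI, had a log2 fold change of 1.75, Star one of 0.79 and Cyp11a1 one of 2.90. Of 10 Sertoli markers, 8 rose and 0 fell, and their sum was 5175 ± 1000 with vehicle and 8129 ± 2226 with GPI. Aard was the most abundant (log2 fold change 0.54), Sox9 rose (0.59), and Amh did not pass the test (0.08, adjusted p = 0.842). Without the pairing by mouse in the model, 6 of the 10 Sertoli markers were called higher.

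Interstitial progenitor markers summed to 17262 ± 1031 with vehicle and 16395 ± 1170 with GPI, with 1 of 6 called higher (Pdgfra, the most abundant, 0.33) and 3 lower, while Nr2f2 did not pass (-0.18, adjusted p = 0.104). Erythroid markers summed to 4035 ± 1438 and 1508 ± 689, with 10 of 12 called lower. Their most abundant gene was Hbb-y (-0.98). Hbb-bt (-3.84) and Hbb-bs (-4.13) are near-identical copies, and reads that match both cannot be assigned to either. The macrophage list gave 510 ± 101 and 195 ± 50.8, with 6 of 7 tested genes called lower, among them Mrc1, the most abundant (-0.90), and Csf1r (-2.22), whereas Adgre1 did not pass (-0.26, adjusted p = 0.512).

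Epithelial markers of the mesonephros were low, at 339 ± 277 and 184 ± 68.5 summed normalized counts, with 1 of 3 tested genes called lower. The gene called lower was Cdh1, which went from 85.9 ± 70.4 to 12.1 ± 8.64 (log2 fold change -2.65, adjusted p = 0.000576). Pax8 was the most abundant of them (log2 fold change -0.28, adjusted p = 0.526), and Pax2, at 10.1 ± 11.6 with vehicle, was too low to test. None of the markers in these 8 lists was at 0 in all libraries. In the germ cell, endothelial, erythroid, macrophage and mesonephric lists 0 genes were called higher, and in the Sertoli and fetal Leydig lists 0 were called lower, also at an unadjusted p of 0.05 and with DESeq2 and limma-voom. The part of these shifts in the transporter results was not tested.

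**Figure D2:**
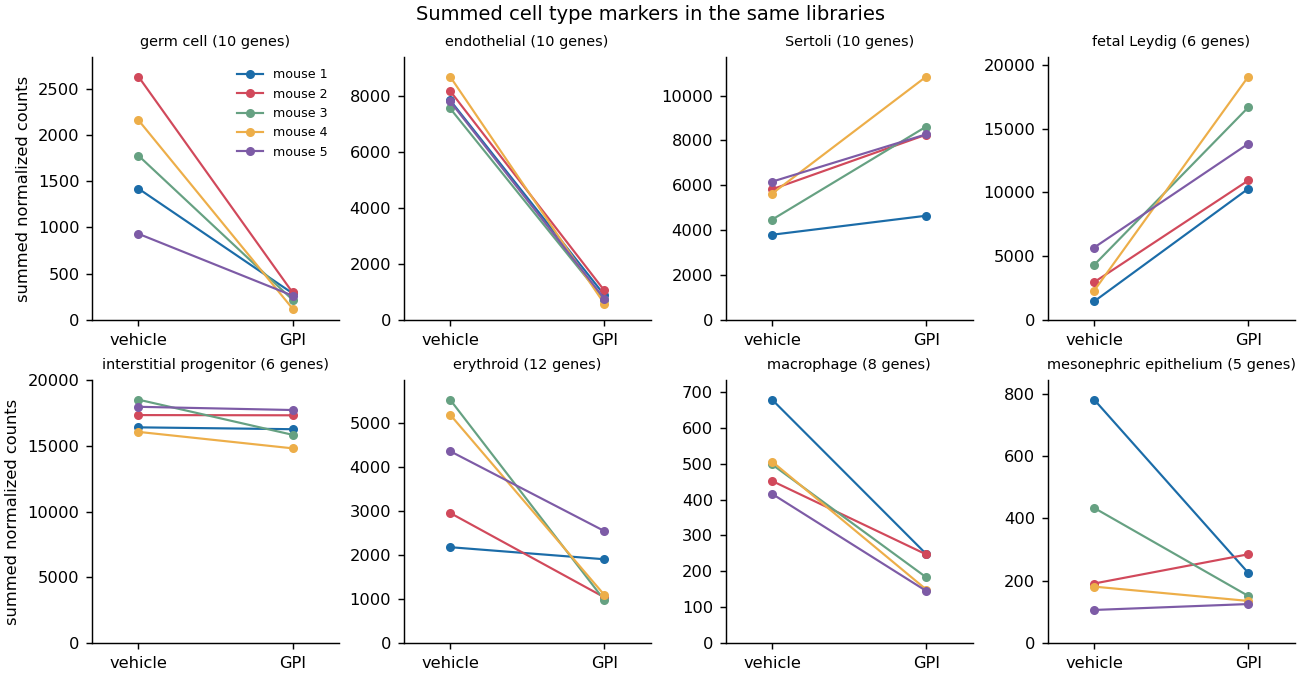
Summed normalized counts (y axis, linear, from 0) of 8 lists of cell type markers in the vehicle and the GPI testis of each of 5 mice, joined by lines. Endothelial sums drop from 8029 to 801 on average, and fetal Leydig sums go from 3335 to 14165.

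The cystine importer Slc7a11 (Entrez 26570, chr3:50364936-50443613 of mm10, minus strand) was counted at 29.9, 37, 97.1, 56.8 and 92.9 normalized counts in the vehicle testes of mice 1 to 5 and at 179, 194, 350, 284 and 194 in their GPI testes. The groups did not overlap, and mice 3 and 5 had the highest vehicle levels. The log2 fold change was 1.99 (SE 0.21, adjusted p = 1.19e-05), which is a 3.97-fold difference with a 95% confidence interval of 2.9 to 5.43, and it ranked 52nd from the top among all tested genes. Within mice the ratio of GPI to vehicle ranged from 2.06-fold in mouse 5 to 5.68-fold in mouse 1.

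Its heavy chain Slc3a2 (Entrez 17254, chr19:8706882-8723369, minus strand) was present at 403, 572, 542, 492 and 547 normalized counts with vehicle and at 945, 773, 908, 781 and 649 with GPI. Mouse 1 had both the lowest vehicle and the highest GPI level. The change was smaller than that of Slc7a11, with a log2 fold change of 0.66 (SE 0.12, adjusted p = 0.00129) and within-mouse ratios from 1.19-fold to 2.34-fold. This difference in size between the chains was not tested.

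Slc7a5 (Entrez 20539, chr8:121881146-121907686, minus strand), the leucine importer that pairs with the same heavy chain, had 241, 420, 400, 324 and 397 normalized counts with vehicle and 334, 409, 512, 489 and 469 with GPI. The groups overlapped, and mouse 2 was the 1 mouse of 5 in which the GPI level was not higher. Its log2 fold change of 0.32 (SE 0.11) missed the threshold at an adjusted p of 0.0514, with a 95% confidence interval of 1.06-fold to 1.47-fold. Without mouse 2 the log2 fold change was 0.41 and the gene was called higher (adjusted p = 0.016), and over all settings tried the adjusted p ran from 0.016 to 0.207.

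Light chains can be set side by side once counts are divided by the length of the exons. Per kilobase, the 6 light chains known to pair with Slc3a2 (Slc7a5, Slc7a6, Slc7a7, Slc7a8, Slc7a10 and Slc7a11) summed to 239 ± 19.7 normalized counts with vehicle and 274 ± 37.5 with GPI, and Slc3a2 itself stood at 174 ± 22.8 and 276 ± 40.2. Slc7a11 made up 2.8% ± 1.27 of the light-chain sum with vehicle and 9.43% ± 2.12 with GPI, and its share was higher in 5 of 5 mice. Slc7a7, which exchanges cationic for neutral amino acids, went the other way, from 19.7% ± 6.22 to 6.91% ± 2.04, lower in 5 of 5 mice.

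Slc7a5 was the largest component in both groups, with 42.1% ± 5.98 and 45.8% ± 2.34. The share of Slc7a8, a second importer of neutral amino acids, was 11.4% ± 5.24 with vehicle and 18.5% ± 2.66 with GPI. It was higher in 4 of 5 mice and went from 20% to 15.6% in mouse 1. The share of Slc7a6 was 23.5% ± 1.27 and 18.7% ± 2. Slc7a10 stayed below 1% on average in each group, at 0.523% ± 0.489 and 0.737% ± 0.89. The GPI testis of mouse 1 had 2.32%, and the other GPI testes had 0.186% to 0.486%. These shares were chosen after the values had been seen and are given as a description, with no test.

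**Figure D3:**
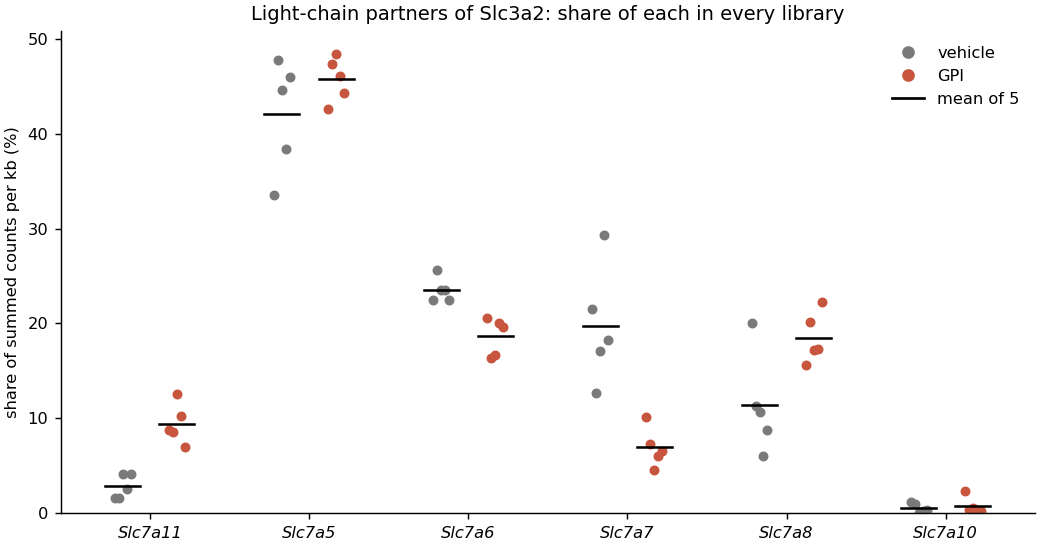
Share (%) of each of 6 light chains in their summed normalized counts per kilobase of exon, in 5 vehicle (grey) and 5 GPI (red) libraries, with a bar at each mean. Slc7a11 lies between 1.58% and 4.13% with vehicle and between 7% and 12.6% with GPI, and Slc7a7 moves down from a mean of 19.7% to 6.91%.

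The arginine and lysine carrier Slc7a3 (Entrez 11989, chrX:101079210-101085405, minus strand) showed the greatest fold difference of the 10. It had 28.8, 17.9, 39.1, 11 and 42.7 normalized counts with vehicle and 109, 122, 215, 191 and 131 with GPI, with no overlap. These are low counts (11 to 56 raw counts a library with vehicle), so its ratio is the least precise. The log2 fold change was 2.48 (SE 0.29, adjusted p = 3.36e-05), or 5.57-fold with a 95% confidence interval of 3.59 to 8.63, and it ranked 28th among all tested genes. Mouse 4, with the lowest vehicle level, had a within-mouse ratio of 14.9-fold, and the other mice ranged from 2.97-fold to 6.25-fold.

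Slc7a1 (Entrez 11987, chr5:148327410-148399904, minus strand), the widely expressed carrier of the same amino acids, was far more abundant. Its levels were 988, 1583, 1165, 1205 and 1389 normalized counts with vehicle and 1851, 2193, 2571, 2792 and 1872 with GPI. Mice 3 and 4 had the highest GPI levels, as for Slc7a3 and Slc7a11. The log2 fold change was 0.83 (SE 0.11, adjusted p = 0.000118), higher in 5 of 5 mice. A related carrier, Slc7a2, did not pass the test (log2 fold change -0.12, adjusted p = 0.311), and it was on average the most abundant of the 3 per kilobase, with 71.4% ± 5.34 of their sum with vehicle and 53.6% ± 6.15 with GPI. In the GPI testis of mouse 4, however, Slc7a1 made up 45.6% and Slc7a2 45%. Slc7a3 accounted for 1.78% ± 0.878 and 7.84% ± 1.83 of that sum.

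Of the exchangers Slc1a4 and Slc1a5, which belong to 1 family, Slc1a4 rose and Slc1a5 did not pass the test. Slc1a4 (Entrez 55963, chr11:20302180-20332713, minus strand), which carries alanine, serine and cysteine, had 255, 197, 209, 210 and 206 normalized counts with vehicle and 384, 536, 541, 536 and 422 with GPI. The vehicle values were close together apart from mouse 1, which was the highest with vehicle and the lowest with GPI. The log2 fold change was 1.16 (SE 0.13, adjusted p = 2.28e-05), with within-mouse ratios from 1.5-fold in mouse 1 to 2.7-fold in mouse 2.

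Slc1a5 (Entrez 20514, chr7:16781346-16798274, plus strand), known as a glutamine carrier, had 93, 60.9, 99.4, 64.7 and 76.9 normalized counts with vehicle and 61.6, 76.2, 77, 69.4 and 55.6 with GPI. It was higher in 2 mice and lower in 3, and the groups overlapped. Its log2 fold change of -0.20 (SE 0.21, adjusted p = 0.543) has a 95% confidence interval of 0.637-fold to 1.18-fold, which does not reach the lower bound of 1.84-fold for Slc1a4; the difference between them was not tested itself. Of the summed level of both genes per kilobase, Slc1a4 made up 66% ± 4.05 with vehicle and 83.3% ± 1.19 with GPI.

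Slc38a1 and Slc38a2 are sodium-coupled glutamine importers that lie near each other on chromosome 15, and of this pair Slc38a1 rose. Slc38a1 (Entrez 105727, chr15:96571418-96642913, minus strand) had 1124, 1160, 1083, 981 and 1048 normalized counts with vehicle and 1407, 1652, 1964, 2057 and 1574 with GPI. All GPI values were above all vehicle values, and the log2 fold change was 0.67 (SE 0.10, adjusted p = 0.000247). Within-mouse ratios ran from 1.25-fold in mouse 1 to 2.09-fold in mouse 4.

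Slc38a2 (Entrez 67760, chr15:96687392-96699698, minus strand) was by far the most abundant of the 10 and varied least between libraries. It had 4538, 4363, 4645, 4660 and 4630 normalized counts with vehicle and 4406, 4969, 5058, 4901 and 5328 with GPI. The groups overlapped through mouse 1, and the log2 fold change was 0.11 (SE 0.07, adjusted p = 0.271), with a 95% confidence interval of 0.978-fold to 1.19-fold. The interval lies below that of Slc38a1 (1.37-fold to 1.85-fold), and this difference was not tested itself either. Slc38a1 made up 11.7% ± 0.92 of the sum of both genes per kilobase with vehicle and 16.4% ± 2 with GPI.

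The glycine importer Slc6a9 (Entrez 14664, chr4:117835258-117869305, plus strand) had 68.7, 111, 94.9, 80.7 and 96 normalized counts with vehicle and 151, 142, 195, 227 and 141 with GPI. Its groups did not overlap, and mouse 4 was again the highest with GPI. The log2 fold change was 0.91 (SE 0.18, adjusted p = 0.00249). Slc6a9 overlaps Ccdc24 on the other strand, and since the libraries do not keep strand, reads of the shared stretch cannot be assigned. Ccdc24 was low, at 19.2 normalized counts on average, and none of the other 9 transporters overlapped another entry of the table.

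Per kilobase of exon, the vehicle levels of the 10 fell in the order Slc38a2 (980 ± 26.6 normalized counts per kilobase), Slc7a1 (176 ± 31.7), Slc3a2 (174 ± 22.8), Slc38a1 (130 ± 8.34), Slc7a5 (101 ± 21), Slc1a4 (54.8 ± 5.77), Slc1a5 (28.6 ± 6.13), Slc6a9 (25.9 ± 4.64), Slc7a3 (11.7 ± 5.65) and Slc7a11 (6.8 ± 3.37). The most abundant was 144-fold above the least abundant. Neighbours in this order overlapped in their library ranges from Slc7a1 through Slc3a2 and Slc38a1 to Slc7a5, between Slc1a5 and Slc6a9, and between Slc7a3 and Slc7a11, so that these orders are not resolved.

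With GPI the spread of levels was narrower, with the most abundant 43-fold above the least. By group means the first 6 places were held by the same genes in the same order, but the ranges of Slc7a1 and Slc3a2, of Slc3a2 and Slc38a1, and of Slc7a5 and Slc1a4 overlapped, and Slc1a4 was above Slc7a5 in 2 of 5 GPI libraries. The levels at the top were 1058 ± 72.1 normalized counts per kilobase for Slc38a2 and 314 ± 58.4 for Slc7a1. Slc7a3 (64.3 ± 19.5) and Slc6a9 (49.2 ± 11) overlapped in the places after them, and Slc7a11 (26 ± 8.04) overlapped with Slc1a5 (24.6 ± 3.37), which was now the lowest. The sum of the 10 was 1689 ± 67.5 with vehicle and 2270 ± 189 with GPI.

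The size of the response differed between mice. The median within-mouse log2 ratio of the 10 transporters was 0.75, 0.45, 0.94, 1.14 and 0.49 in mice 1 to 5, beside 0.01 to 0.02 for all tested genes. Mouse 4 had the highest median and mice 2 and 5 the lowest. In mouse 4, 10 of the 10 transporters were higher with GPI, against 8 in mouse 1 and 9 in each other mouse, beside 50.6% to 52.4% of all tested genes. The GPI testis of mouse 4 also had the highest sums of fetal Leydig markers (19090 normalized counts) and Sertoli markers (10849) and the lowest sum of germ cell markers (121). That of mouse 1 had the lowest fetal Leydig (10293) and Sertoli (4644) sums of the GPI testes, while its transporter median was above those of mice 2 and 5. With 5 mice, no correlation between these measures was computed, and their relation was not tested.

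Transporters that rose together can be compared by the letters of their promoters. RefSeq promoter windows ran from 250 bases before to 50 after the start site (GRCm38.p6). They were at hand for 6 of the 10 transporters, in 9 windows, and for 19 of 20 genes on a list of amino acid response genes. Slc7a3 and Slc38a1, which rose, and Slc7a5 and Slc1a5, which did not pass the test, had no window and were not searched. Searched on both strands were TGATGNAA, the core of the amino acid response element to which Atf4 binds with its partners, and TGACNNNGC, the core of the antioxidant response element bound by the product of Nfe2l2. The motifs differ at the fourth letter, so no match of one can start where a match of the other does on the same strand. TGATGNAA occurs in 3.97% of all 32851 windows and TGACNNNGC in 12.4%. Counted by gene, as the counts below are, the shares are 4.51% and 14%.

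TGATGNAA was found in 2 of the 6 transporters, Slc7a11 and Slc1a4, and in 7 of the 19 response genes. Of these 7, Asns, Trib3 and Nupr1 rose, while Chac1, Atf3, Vldlr and Pck2 did not pass the test. Among the transporters that rose, Slc7a1 and Slc6a9 lack it in their windows. Slc3a2 lacks it in its only window, whose start site lies 9472 bases inside the outer end of the gene given above, and the letters at that end were not analysed here. In the other lists described below, it was found in 1 of 38 other transporters with a window (Slc7a7, which fell), 1 of 22 genes that couple amino acids to mTORC1 (Lamtor4, which rose), 1 of 13 enzymes (Got1, which rose) and 0 of 11 glutathione genes. Slc7a11 holds 2 copies in opposite orientations, at positions -66 and -47 from the start site, and Slc1a4 once at position -4. TGACNNNGC was found in 3 of the 6, namely Slc7a1, Slc38a2 and Slc6a9, and in 5 of the 19. Of these 5, Asns, Sesn2, Stc2 and Phgdh rose and Cebpb did not pass the test. In the other lists, 0 called genes carried it. It was found there in 4 glutathione genes that did not pass (Gclm, Txnrd1, Nfe2l2 and Srxn1). Among the other transporters, 4 that did not pass and 1 that was not tested held it. So did 2 mTORC1 genes (Rheb and Lamtor5) and 1 enzyme (Amt) that did not pass. A match is a description of the letters and does not show that a factor binds. The stretches from 100 bases before to 10 bases after the start are printed for Slc7a11 (chr3:50443604-50443713, minus strand) and Slc1a4 (chr11:20332704-20332813, minus strand), which rose, for Slc38a2 (chr15:96699719-96699828, minus strand), which did not pass the test and lacks TGATGNAA in its window, and for Asns (chr6:7693200-7693309, minus strand), a response gene that rose and carries the motif at position -23. Capitals mark TGATGNAA in Slc7a11, Slc1a4 and Asns and TGACNNNGC in Slc38a2, on either strand.
Slc7a11: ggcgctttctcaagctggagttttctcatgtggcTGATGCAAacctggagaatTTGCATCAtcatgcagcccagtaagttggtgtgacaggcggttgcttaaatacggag
Slc1a4: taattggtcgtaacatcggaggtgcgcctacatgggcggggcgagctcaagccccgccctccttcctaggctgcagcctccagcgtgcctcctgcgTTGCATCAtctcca
Slc38a2: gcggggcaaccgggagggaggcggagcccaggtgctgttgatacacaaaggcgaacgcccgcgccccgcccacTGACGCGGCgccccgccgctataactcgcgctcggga
Asns: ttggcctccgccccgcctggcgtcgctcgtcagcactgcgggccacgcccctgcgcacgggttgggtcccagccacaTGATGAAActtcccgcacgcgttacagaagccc

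A second list holds 49 other amino acid transporters. Of these, 30 were tested, and 3 rose (10%, beside 11.1% of all tested genes), 1 fell (3.33%, beside 11.9%) and 26 did not pass, with a median log2 fold change of 0.07. Slc6a15, a sodium-coupled carrier of branched-chain amino acids and proline, rose from 66.9 ± 20.6 to 167 ± 62.1 normalized counts (log2 fold change 1.29, adjusted p = 0.00241). Slc7a8 rose in 4 of 5 mice, from 108 ± 40.1 to 208 ± 46.7 (0.99, adjusted p = 0.00942), and was not called without mouse 5. Slc38a9, which senses arginine at the lysosome, went from 271 ± 21.8 to 366 ± 47.9 (0.43, adjusted p = 0.00708).

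The transporter that fell was Slc7a7, from 117 ± 35.4 to 45.8 ± 7.89 normalized counts, with a log2 fold change of -1.32 (adjusted p = 0.000512) and lower levels in 5 of 5 mice. The count called higher was 5 without mouse 2, and the count called lower was 3 without mouse 1. The 19 genes that were not tested had too few counts, and 2 of them had none in any library.

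**Figure D4:**
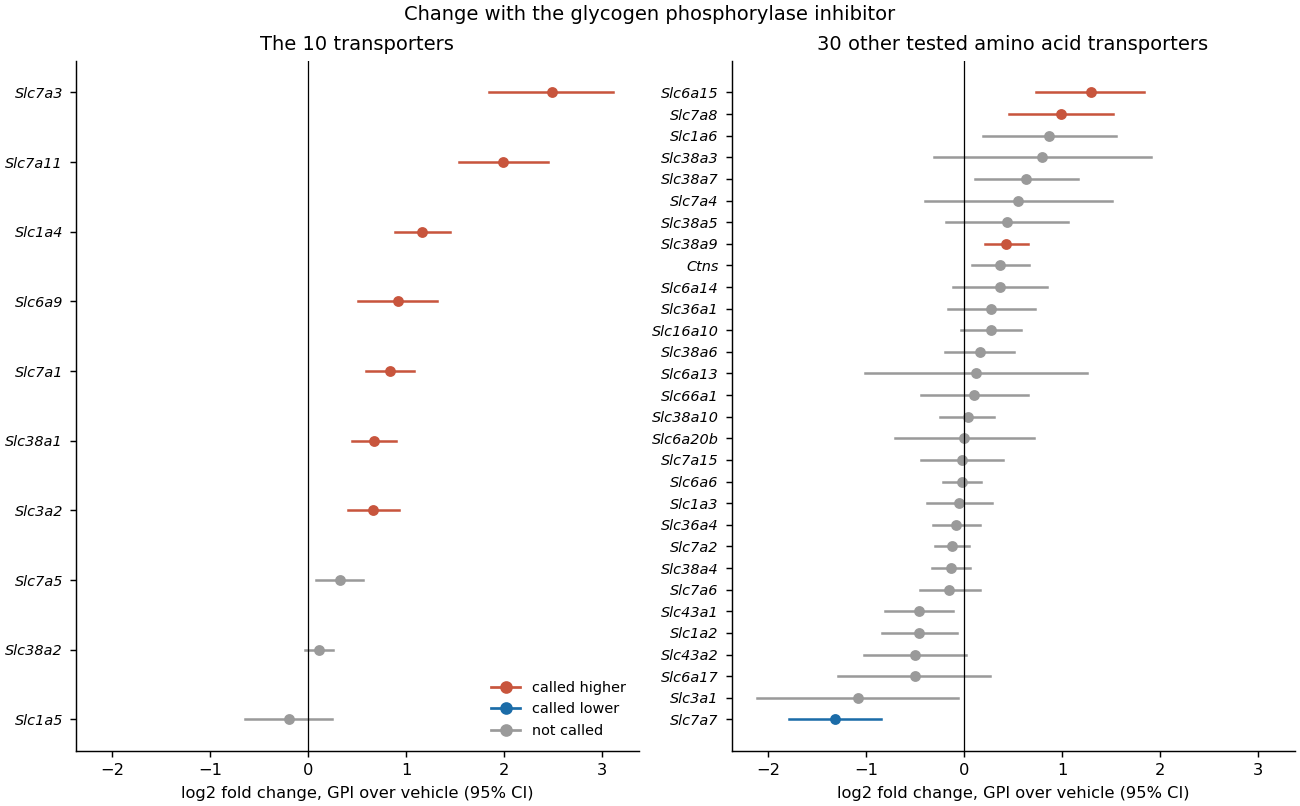
Log2 fold change of GPI over vehicle (x axis) with its 95% confidence interval for the 10 transporters (left) and 30 other tested amino acid transporters (right), red where called higher, blue where called lower and grey where not called. The left panel holds 7 red genes, with Slc7a3 at 2.48 and Slc7a11 at 1.99, and the right panel 3 red genes and 1 blue gene, Slc7a7 at -1.32.

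Amino acid response genes are those that Atf4 or a shortage of amino acids is known to act on. Of 20 listed and tested, 12 rose (60%, beside 11.1% of all tested genes), 1 fell (5%, beside 11.9%) and 7 did not pass, and the median log2 fold change was 0.54. Atf4 itself went from 1326 ± 106 to 1907 ± 188 normalized counts (log2 fold change 0.52, adjusted p = 0.000441), whereas the sensor kinase Eif2ak4 did not pass the test (-0.08, adjusted p = 0.682). Asns, which makes asparagine and is a widely used readout of the response, had a log2 fold change of 1.15 (adjusted p = 3.44e-06). Nupr1, a stress-induced regulator of transcription, went from 18.3 ± 6.15 to 83.5 ± 8.79 (2.22, adjusted p = 2.53e-05), and Gpt2, a mitochondrial alanine aminotransferase, had a log2 fold change of 1.17 (adjusted p = 4.9e-05).

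The response gene that fell was Ddit4, an inhibitor of mTORC1, which was chosen after its values were seen. It went from 633 ± 54.5 to 435 ± 145 normalized counts (log2 fold change -0.60, adjusted p = 0.00652), although the groups overlapped. The count called lower was 2 without mouse 1. Atf4 is regulated to a large extent at translation, which counts of transcripts do not measure.

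Another list holds genes that couple amino acids to the growth kinase complex mTORC1. Of 24 listed, 23 were tested, with 3 called higher (13%, beside 11.1% of all tested genes) and 0 lower (beside 11.9%), and a median log2 fold change of 0.17. Those that rose were Fnip1 (0.43, adjusted p = 0.00146), which works on the Rag GTPases, Eif4ebp1 (0.50, adjusted p = 0.0188), a repressor of translation that mTORC1 inactivates, and Lamtor4 (0.70, adjusted p = 0.0286), a subunit of the lysosomal anchor. Mtor (0.04), Rptor (0.17) and Rheb (-0.04) did not pass the test. At an unadjusted p of 0.05, where 17% of all tested genes lay in each direction, 7 genes of the list were higher and 1 lower, and DESeq2 and limma-voom called 3 higher and 0 lower. Without mouse 3, and likewise without mouse 4, 1 gene was called higher. Lamtor4 was not called without mouse 2, 3, 4 or 5, and Eif4ebp1 was not called without mouse 1, 3 or 4.

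Imported cystine is reduced to cysteine, which cells use to make glutathione. Of 14 genes for glutathione and its control, 2 rose (14.3%, beside 11.1% of all tested genes), 1 fell (7.14%, beside 11.9%) and 11 did not pass, with a median log2 fold change of 0.14. Gclc, the catalytic subunit of the enzyme that begins glutathione synthesis, rose from 279 ± 41.3 to 369 ± 40.6 normalized counts (0.41, adjusted p = 0.0146), while its partner Gclm (-0.03, adjusted p = 0.915) and the next enzyme Gss (0.01, adjusted p = 0.981) did not pass. Keap1, which holds the product of Nfe2l2 in check, rose (0.42, adjusted p = 0.00806) but was not called without mouse 4, which left 1 gene called higher. Cd44, a surface receptor known to stabilize the cystine carrier, fell from 330 ± 25.3 to 107 ± 30.8 (-1.65, adjusted p = 1.18e-05), and the count called lower was 2 without mouse 2.

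Enzymes that use the carried amino acids changed in both directions. Of 17 listed, 16 were tested, with 8 called higher (50%, beside 11.1% of all tested genes), 3 lower (18.8%, beside 11.9%) and 5 not called, and the median log2 fold change was 0.33. Odc1, which makes polyamines from ornithine, rose from 1287 ± 73.6 to 2239 ± 261 normalized counts (0.79, adjusted p = 1.42e-05), and Got1, the cytosolic aspartate aminotransferase, from 388 ± 53.1 to 773 ± 123 (0.99, adjusted p = 2.22e-05). Those that fell included Glud1, which oxidizes glutamate and was lower with GPI in 5 of 5 mice (-0.59, adjusted p = 4.43e-05), and Glul, which makes glutamine (-0.74, adjusted p = 0.0213). Glul had 2918 and 2462 normalized counts in the vehicle testes of mice 1 and 3 and 1028 to 1178 in the others. In mouse 2 it had 1178 with vehicle against 1163 with GPI. It was not called without mouse 3 (log2 fold change -0.61) or with DESeq2 (-0.75). The vehicle testes of mice 1 and 3 also had the highest sums of mesonephric epithelial markers (782 and 434), and the part of this in the result was not tested. With mouse 1, 2, 3 or 4 left out, 5 enzymes were called higher in place of 8.

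**Figure D5:**
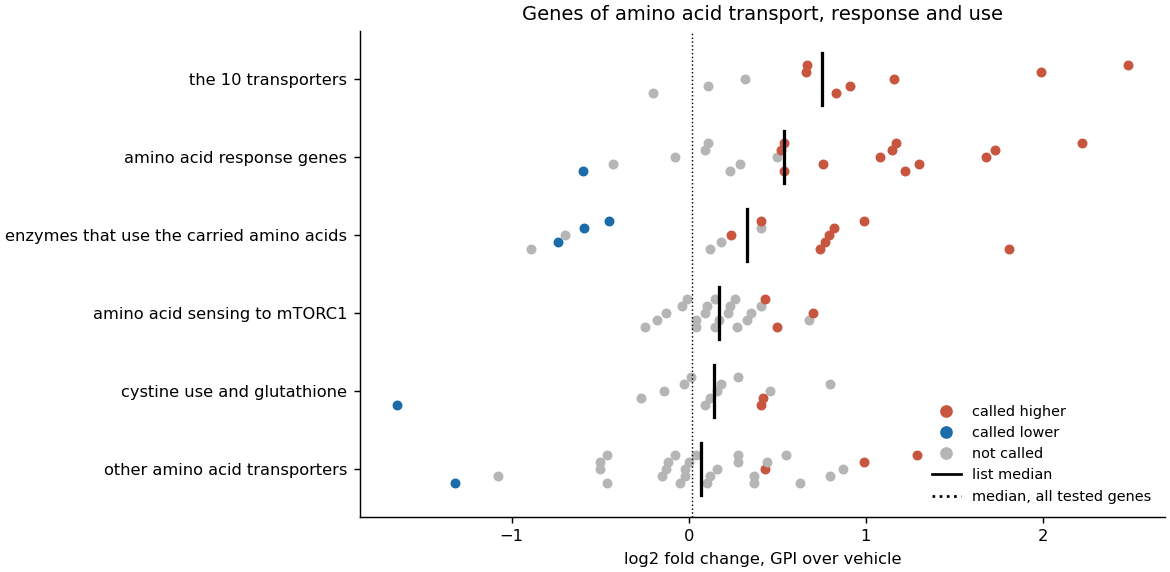
Log2 fold change of GPI over vehicle (x axis) of each tested gene in 6 lists, red where called higher, blue where called lower and grey where not called, with a bar at the median of each list and a dotted line at the median of all tested genes (0.02). List medians run from 0.07 for the other amino acid transporters to 0.75 for the 10 transporters.

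The genes whose levels ran most like those of Slc7a11 over the 10 libraries were Stk32a (Pearson r = 0.983), Vnn1 (0.978), Cyp11a1 (0.978), Gm5862 (0.974) and Tmprss13 (0.973), out of 11104 genes compared, whose counts averaged 50 or more a library. Each of these was itself higher with GPI, by log2 fold changes of 1.27 to 2.90, and Cyp11a1 is among the fetal Leydig markers above. For Slc38a2 they were Cdadc1 (0.944), Smad2 (0.934), Cnnm2 (0.930), Stmn1 (0.924) and Atg10 (0.923), with log2 fold changes of 0.14 to 0.47. These coefficients are given as a description, since the 10 libraries share their grouping by treatment and their mice.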

How the data were processed

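The authors aligned paired-end reads of unstranded libraries to mm10 with STAR 2.5 and counted fragments per RefSeq gene with featureCounts (Subread 1.5.0-p1), versions per the submitters' notes, and the deposited values are raw counts. Groups and pairing come from the labels, in which both gonads of an embryo share an animal number. Deviations from the group means correlated at 0.06 on average between gonads of 1 mouse (-0.04 to 0.16) and at -0.015 between mice. No 2 libraries of 1 group agreed within sampling noise (lowest chi-square per degree of freedom 6.42). The GPI library of mouse 1 stood apart from the other GPI libraries, at 21.74 to 27.81, against 7.48 to 11 among those others.

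Counts were scaled by TMM (factors 0.951 to 1.039), and filterByExpr set aside 10529 of 24470 entries. Tests used edgeR 4.0.16 (quasi-likelihood, mouse and treatment, false discovery rate 0.05) in R 4.3.3. DESeq2 1.42.0, limma 3.58.1, other scalings and filters, a model without the mouse and each mouse left out were alternatives. The test was checked on simulated data. Within-mouse ratios used a prior count of 2. Exon lengths came from GENCODE M21 transcripts tied to RefSeq. Figures used matplotlib 3.10.9.

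The members and lists were chosen with earlier results of these data known. Named are all 10 members, every called gene among the other transporters, the first 3 genes and the 3 with the smallest p of each other list, the most abundant and the first 2 of each marker list, and the 5 genes most like the member with the smallest p and like the most abundant member. Others are named after their values were seen, and some genes that the rule takes are not reported here.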

Additional observations from a re-analysis of the deposited data

Results flagged for a closer look

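Of 30 groups of 5 values examined (vehicle levels, GPI levels and within-mouse ratios of the 10 transporters), 1 held a value far from the others. The vehicle testis of mouse 1 had 255 normalized counts of Slc1a4, while the other vehicle testes had 197 to 210. Chance alone flags about 1 in 20 such groups. The same library had the highest sum of mesonephric epithelial markers (782 normalized counts, against 106 to 434 in the other vehicle testes), and the part of this in its Slc1a4 level was not tested. Without mouse 1, Slc1a4 was again called higher with GPI.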

How the results depend on the processing

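Call counts of all genes, of the transporters and of the 5 pathway lists, and the fold changes of their genes, were recomputed under 12 alternatives. Marker lists were recomputed with DESeq2, limma-voom and the unpaired model, and shares, level orders, correlations and motif counts under none. The 7 transporters called higher were called in all 12, 0 were called lower in any, and of 120 calls on single transporters 119 were on the same side of the threshold, the exception being Slc7a5 without mouse 2. The log2 fold change of Slc7a11 ranged from 1.85 to 2.25, of Slc7a3 from 2.15 to 2.74 and of Slc3a2 from 0.51 to 0.77. Without the replicate block for the paired gonads, 1498 genes were called higher and 1610 lower, beside 1544 and 1654 in the paired model, and 7 transporters were called higher.

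Small counts in the lists moved. Among the other transporters, 2 were called lower with limma-voom and 2 with total counts only, in place of 1, and leaving out 1 mouse gave 1 to 3 called lower and 2 to 5 higher. Amino acid response genes called lower numbered 2 with no low-count filter, and 1 to 2 with 1 mouse left out. Leaving out 1 mouse gave 1 to 4 mTORC1 genes called higher, 1 to 3 glutathione genes higher and 1 to 2 lower, and 5 to 6 enzymes higher. Where a gene of the transporters and lists was tested both ways, its call was lost 32 times, gained 22 times and reversed 0 times over the 12 alternatives. With at least 10 counts asked of every library, Trib3 and Nupr1 were not tested, which left 10 response genes called higher in place of 12. With 4 mice the tests have fewer samples, and for the other settings the cause was not tested. Levels below about 50 counts a library, such as Slc7a3 with vehicle, carry the widest intervals.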
